A study of Mus musculus with 11 samples.

Results

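The phagocyte NADPH oxidase, its renal relative Nox4 and a pair of inducible enzymes linked to oxidants were followed in kidneys of lupus-prone mice. The 8 genes were Cybb, Cyba, Ncf1, Ncf4, Rac2, Nox4, Nos2 and Hmox1, picked by symbol from the 25677 genes in the table. All 8 passed the filter on low counts in each of the 3 comparisons. RNA was sequenced from whole kidneys of female mice aged 21 weeks, with 1 library per mouse. The 3 Ctr mice were C57BL/6J (genotype label C57B6) and received no DNase I. The 4 Lpr mice were untreated MRL/lpr, a strain that carries a Fas mutation and develops a nephritis resembling human lupus. The 4 DNase mice were MRL/lpr mice that received DNase I, an enzyme that cuts extracellular DNA, by daily injection into the peritoneum from week 17. No vehicle injection is named for the untreated mice in the sources used here. All 8 MRL/lpr mice carry the same strain background, so strain and disease cannot be told apart in a comparison with Ctr.

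The phagocyte oxidase moves electrons from NADPH across a membrane to oxygen and so makes superoxide. Cybb encodes its catalytic subunit gp91phox (NOX2) and Cyba its membrane partner p22phox. Ncf1 (p47phox) and Ncf4 (p40phox) encode cytosolic subunits that join the membrane pair on activation. A Rac GTPase joins too, such as Rac2, which is found mainly in blood cells. Nox4 is abundant in kidney tubules, makes mainly hydrogen peroxide, needs p22phox and does not need the cytosolic subunits. Nos2 encodes inducible nitric oxide synthase, and Hmox1 encodes heme oxygenase 1, a target of the transcription factor NRF2. The study asked whether DNase I lowers inflammatory injury in the kidney and also followed inducible nitric oxide synthase by other methods.

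The promoters of 4 of the 8 genes were found in the RefSeq table (build GRCm38.p6, the build the labels call mm10), and those of Ncf4, Rac2, Nos2 and Hmox1 are only named here. Each window below is the 250 bases before a RefSeq transcript start, read 5′ to 3′ on the strand of the gene, and capitals mark every match on either strand to one of 4 motifs. These 4 are shown because they were found. Ncf4, Rac2 and Nos2 also lay higher in every MRL/lpr kidney than in any Ctr kidney, but have no window here. How the matches relate to the levels of the genes was not tested.
Cybb, chrX:9469325-9469574, minus strand: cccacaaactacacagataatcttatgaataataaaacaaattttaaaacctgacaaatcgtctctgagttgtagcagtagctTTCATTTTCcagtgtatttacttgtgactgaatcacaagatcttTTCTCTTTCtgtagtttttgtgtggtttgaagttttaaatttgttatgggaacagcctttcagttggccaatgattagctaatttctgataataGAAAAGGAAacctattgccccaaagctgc
Ncf1, chr5:134229626-134229875, minus strand: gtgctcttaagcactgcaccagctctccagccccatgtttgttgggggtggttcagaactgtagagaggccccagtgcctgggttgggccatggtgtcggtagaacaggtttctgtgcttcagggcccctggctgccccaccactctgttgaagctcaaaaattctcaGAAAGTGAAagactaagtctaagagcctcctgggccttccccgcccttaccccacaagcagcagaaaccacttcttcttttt
Cyba, chr8:122432941-122433190, minus strand: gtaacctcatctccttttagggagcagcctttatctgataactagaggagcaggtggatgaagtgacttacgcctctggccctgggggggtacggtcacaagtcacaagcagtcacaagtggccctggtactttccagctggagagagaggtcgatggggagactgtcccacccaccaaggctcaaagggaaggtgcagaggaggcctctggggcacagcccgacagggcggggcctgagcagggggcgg
Nox4, chr7:87246399-87246648, plus strand: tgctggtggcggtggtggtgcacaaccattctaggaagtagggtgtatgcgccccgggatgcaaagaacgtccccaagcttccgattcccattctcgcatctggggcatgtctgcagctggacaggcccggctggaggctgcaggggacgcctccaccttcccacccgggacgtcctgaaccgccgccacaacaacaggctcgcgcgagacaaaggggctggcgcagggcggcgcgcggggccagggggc
The motifs searched were GAGGAA (a string bound by PU.1, a myeloid transcription factor), TGACNNNGC (the core of the antioxidant response element), GAAANNGAA (the core of an interferon response element) and TATAAA. Of these strings only GAAANNGAA was found. Other strings that the same factors may bind were not searched. The Cybb window held 3 matches, which end 159, 115 and 21 bases before the start, and the Ncf1 window held 1 match, which ends 74 bases before it. The windows of Cyba and Nox4 held none of the 4 motifs. GAAANNGAA occurred in 7.13% of the 32851 promoter windows of the table and 3 or more times in 0.0578%, while GAGGAA occurred in 23.3%, TGACNNNGC in 10.2% and TATAAA in 12.4%. GC content was 34.0% for Cybb, 54.4% for Ncf1, 60.0% for Cyba and 67.2% for Nox4, so that 3.87% of all windows had a lower GC content than Cybb and 86.5% a lower one than Nox4. The annotated genes of Cybb and Nox4 extend beyond these starts on the 5′ side, so other transcript starts exist for both. A match is a string of letters and was not tested for binding.

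In the RefSeq annotation Cybb lies at chrX:9435252-9487766, Cyba at chr8:122424771-122432940, Ncf1 at chr5:134220053-134229628 and Rac2 at chr15:78559169-78572783, all on the minus strand. On the plus strand lie Ncf4 at chr15:78244164-78262582, Nox4 at chr7:87244430-87398710, Nos2 at chr11:78920787-78960226 and Hmox1 at chr8:75093618-75100593. Ncf1 shares 408 exon bases with Gtf2ird2 on the opposite strand, and whether reads were counted by strand is not given in the sources used here, so its counts may hold reads of that gene. None of the 8 genes had a near-identical copy, taken as 95% identity or more across 70% or more of its coding sequence.

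Counted reads per kidney lay between 33469858 and 38460873. Markers of the kidney were present in every library, with summed levels of 6 proximal tubule genes between 4554 and 10971 CPM (counts scaled to the TMM-adjusted library size). Lpr replicate 3 stood apart: its counts fell with gene length, with a slope of -0.39 log2 CPM per doubling of length against -0.04 to 0.08 in the other 10 kidneys. Against the mean log2 CPM of the other 3 Lpr kidneys, replicate 3 was higher by 1.17 for Cyba (gene length 759 bases) and by 1.29 for Hmox1 (1576 bases). It was lower for the long genes, with differences of -1.18 for Cybb (4802 bases), -1.04 for Nos2 (4296 bases) and -0.64 for Nox4 (6272 bases). For the rest it was -0.73 for Ncf1 (2764 bases), 0.18 for Ncf4 (1709 bases) and -0.06 for Rac2 (3036 bases). Cyba and Hmox1, the shortest of the 8 genes, were thus highest in that kidney. For genes of like length the median difference was 1.24 beside Cyba, 0.60 beside Hmox1, -0.38 beside Cybb, -0.35 beside Nos2 and -0.49 beside Nox4. The median was 0.10 beside Ncf1, 0.60 beside Ncf4 and 0.01 beside Rac2. For the 8 genes, fold changes that rest on the Lpr group are therefore also given without replicate 3. Those of other genes, and the counts by list, include it unless stated.

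**Figure D1:**
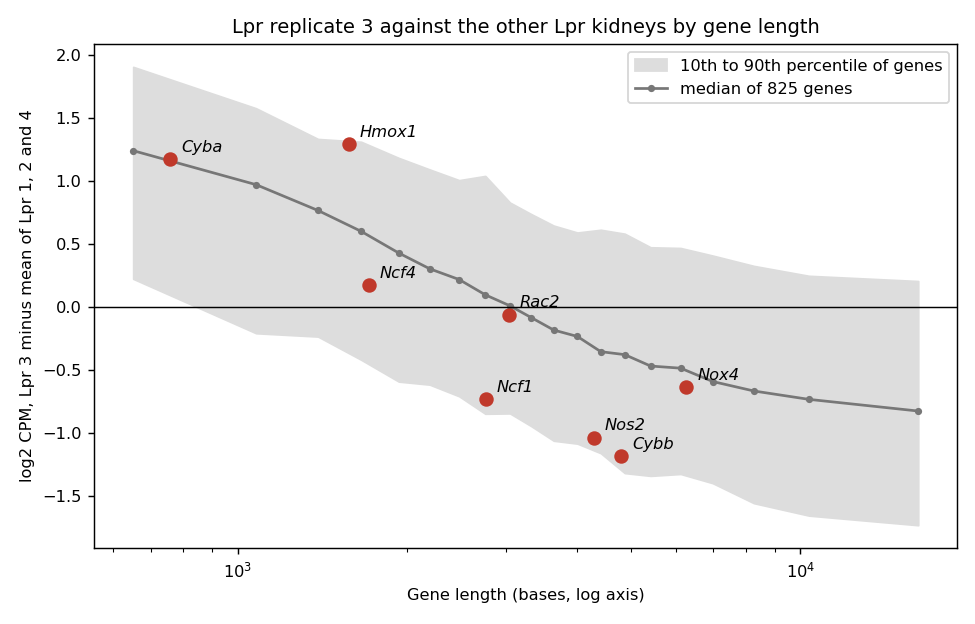
The difference in log2 CPM between Lpr replicate 3 and the mean of the other 3 Lpr kidneys (vertical axis) against gene length in bases (horizontal, log axis). Red points are the 8 genes, the grey line joins medians of 20 length classes with equal numbers of genes and the shading spans the 10th to the 90th percentile. The line falls from 1.24 in the shortest to -0.83 in the longest class, and Cyba and Hmox1 lie above 1 while Cybb lies at -1.18.

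Per length of gene (FPKM), Cyba was the most abundant of the 8 genes in every kidney and Nox4 came next in all but 1, Lpr replicate 3, where Hmox1 did. In Ctr the mean levels were 364 FPKM for Cyba, 101 for Nox4, 17.2 for Hmox1, 2.05 for Cybb, 2.01 for Rac2, 1.07 for Ncf1, 0.699 for Ncf4 and 0.199 for Nos2. The ranges of Cybb and Rac2 overlapped in Ctr, and so did those of Ncf1 and Ncf4. In Lpr the means were 589 FPKM for Cyba, 57.7 for Nox4, 32.9 for Hmox1, 17.8 for Rac2, 14.1 for Cybb, 8.89 for Ncf4, 7.11 for Ncf1 and 1.40 for Nos2. Neighbours from Nox4 down to Ncf1 overlapped in Lpr, so only Cyba at the top and Nos2 at the bottom stood clear of the next gene. In DNase the means were 438 FPKM for Cyba, 74.3 for Nox4, 18.0 for Rac2, 15.6 for Hmox1, 14.99 for Cybb, 8.34 for Ncf4, 5.82 for Ncf1 and 1.46 for Nos2. Neighbours from Rac2 down to Ncf1 overlapped there. The balance of the catalytic subunits differed between the groups. Nox4 exceeded Cybb by a factor of 40.3 to 58.4 in the Ctr kidneys, 2.82 to 6.34 in the Lpr kidneys and 3.52 to 7.26 in the DNase kidneys. No MRL/lpr kidney came near the Ctr range. This ratio was not tested. In Lpr replicate 3 it was 5.67, inside the range of the other Lpr kidneys.

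**Figure D2:**
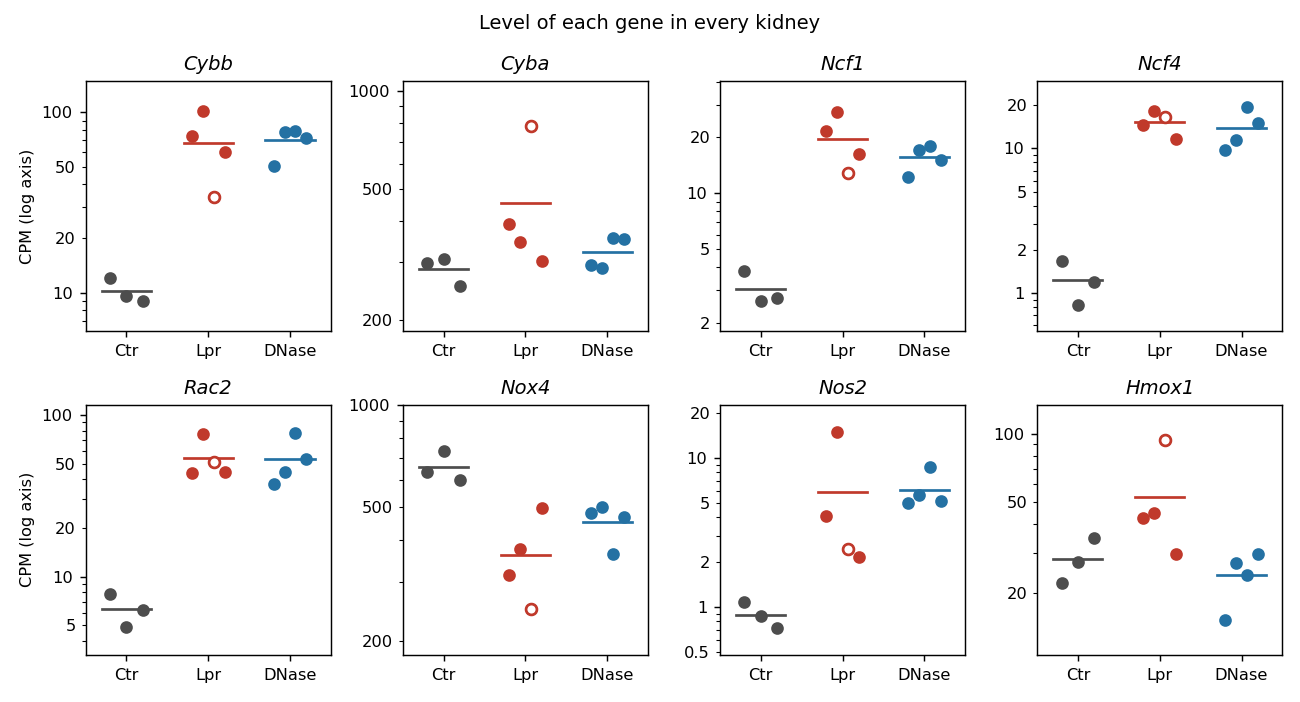
Level of each of the 8 genes in CPM (vertical, log axis, a different range in each panel) in the kidneys of Ctr (3), Lpr (4) and DNase (4), with 1 point per kidney and a bar at the group mean. The open point is Lpr replicate 3. Cybb, Ncf1, Ncf4, Rac2 and Nos2 lie higher in every MRL/lpr kidney than in any Ctr kidney, Nox4 lies lower in all of them, and Cyba and Hmox1 overlap Ctr.

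Untreated MRL/lpr kidneys were compared with Ctr to see which parts of the oxidase differ in the diseased strain. The hematopoietic parts were higher, at 6.41 to 12.4 times Ctr, while the membrane partner Cyba did not pass the test and Nox4 lay below Ctr. Of the 8 genes, 4 were called higher (Cybb, Ncf1, Ncf4 and Rac2), meaning an adjusted p under 0.05 by edgeR's quasi-likelihood test and a log2 fold change above 2, beside 4.65% of the 16074 genes tested. None was called lower. By adjusted p alone the 4 genes were the same, beside 7.27% of all genes that passed as higher and 2.92% as lower. The median log2 fold change of the 8 genes was 2.71 and that of all genes 0.03. In 6 of the 8 genes the Lpr and Ctr kidneys did not overlap, beside 25.6% of all genes. Without Lpr replicate 3, 5 of the 8 genes were called higher (Nos2 in addition), beside 751 of 15855 genes, and Nox4 passed as lower, beside 6.79% of all genes.

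Cybb, the catalytic subunit, stood at 12.1, 9.60 and 8.99 CPM in the Ctr kidneys, at 73.7, 101, 33.7 and 60.0 CPM in the Lpr kidneys (replicates 1 to 4) and at 50.5, 78.0, 79.2 and 71.7 CPM in the DNase kidneys. Each MRL/lpr kidney was above each Ctr kidney, and the lowest of them was Lpr replicate 3. Cybb was 6.63-fold higher in Lpr than in Ctr (log2 fold change 2.73, SE 0.37, adjusted p = 0.00232, edgeR), and without Lpr replicate 3 the log2 fold change was 2.95.

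Among the cytosolic subunits, Ncf1, the organiser that carries the complex to the membrane, stood at 3.83, 2.65 and 2.73 CPM in Ctr, at 21.6, 27.5, 12.8 and 16.3 CPM in Lpr and at 12.2, 17.2, 18.1 and 15.04 CPM in DNase. No MRL/lpr kidney reached down to the Ctr range. The log2 fold change between Lpr and Ctr was 2.68 (SE 0.32, adjusted p = 0.00141, edgeR), and 2.83 without Lpr replicate 3. Ncf4, which binds a membrane lipid of the phagosome, had 1.67, 0.8288 and 1.20 CPM in Ctr, 14.6, 18.2, 16.5 and 11.7 CPM in Lpr and 9.73, 11.4, 19.2 and 14.96 CPM in DNase. It had the largest fold change of the 8 genes in both comparisons with Ctr, at 12.4-fold between Lpr and Ctr (log2 fold change 3.63, SE 0.32, adjusted p = 0.000521, edgeR), with a log2 fold change of 3.58 when Lpr replicate 3 was left out. Its lowest Ctr kidney held 26 counts, so the Ctr level carries the larger counting error.

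Rac2, a GTPase of blood cells that can switch the complex on, was measured at 7.82, 4.91 and 6.203 CPM in Ctr, at 43.5, 76.5, 50.8 and 44.5 CPM in Lpr and at 37.5, 44.2, 77.4 and 53.2 CPM in DNase. The lowest MRL/lpr kidney held several times the highest Ctr level. The log2 fold change between Lpr and Ctr was 3.10 (SE 0.29, adjusted p = 0.000608, edgeR), and 3.12 without Lpr replicate 3. Rac1, which is expressed in most cells, did not pass in any comparison.

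Cyba, the shared membrane partner of NOX2 and Nox4, was at 299, 307 and 254 CPM in Ctr, at 393, 346, 779 and 302 CPM in Lpr and at 295, 288, 356 and 354 CPM in DNase. Its groups overlapped, and the high value of 779 CPM was that of Lpr replicate 3. The log2 fold change between Lpr and Ctr was 0.68 (95% interval -0.07 to 1.43, adjusted p = 0.288, edgeR), and without Lpr replicate 3 it was 0.28 (adjusted p = 0.170). It passed in 1 of 17 alternative settings, with the length trend of each library removed and replicate 3 left out (0.43, adjusted p = 0.0401), a setting chosen after the data were seen. Cyba therefore stood at 156 to 203 times Cybb per length in Ctr, at 21.6 to 146 times in Lpr, where the highest ratio was that of replicate 3, and at 23.3 to 37.0 times in DNase.

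Nox4, the renal oxidase, ran the other way. It was at 636, 731 and 600.1 CPM in Ctr, at 315, 374, 250.02 and 497 CPM in Lpr and at 480, 498, 364 and 467 CPM in DNase. Every MRL/lpr kidney was below every Ctr kidney. Between Lpr and Ctr the log2 fold change was -0.86 (SE 0.24, 95% interval -1.40 to -0.32), which missed the threshold at an adjusted p of 0.0552 by edgeR. It passed without Lpr replicate 3 (-0.72, adjusted p = 0.0301), without Lpr replicate 4 (-1.05, adjusted p = 0.0221) and with DESeq2 (-0.87, adjusted p = 0.0117). Over 17 alternative settings it passed in 7, with log2 fold changes between -1.06 and -0.72 and adjusted p between 0.0117 and 0.200. Of 6 proximal tubule markers, 5 had a log2 fold change below 0 between Lpr and Ctr and none passed, with a median of -0.42 for the list. So did 4 of 6 markers of other kidney segments (median -0.31) and 4 of 4 endothelial markers (median -0.33), and none of these passed. Without Lpr replicate 3, where Nox4 passed, the endocytic receptor Cubn passed as lower (-0.50, adjusted p = 0.0472) and the lactate transporter Slc5a12 as higher (0.95, adjusted p = 0.00520). Slc5a12 also passed as higher in DNase against Ctr (0.90, adjusted p = 0.0257). In Lpr against Ctr without Lpr replicate 3, 1 marker of the other kidney segments passed as lower, Slc12a3 (-0.77, adjusted p = 0.00418, edgeR). Of the endothelial markers 1 did, Kdr (-0.43, adjusted p = 0.0487, edgeR). All of these markers were named after their values were seen. The summed level of the 6 proximal tubule markers was 9334 to 10971 CPM in Ctr, 4554 to 9870 CPM in Lpr and 6298 to 9786 CPM in DNase. The part of the cells behind any of these lists in the lower Nox4 was not tested. In bulk tissue, fewer cells of a type and less RNA per cell cannot be told apart.

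Nos2, the inducible nitric oxide synthase, was the scarcest of the 8 genes. It had 1.08, 0.861 and 0.719 CPM in Ctr (24 to 40 counts), 4.04, 14.97, 2.45 and 2.15 CPM in Lpr and 4.94, 5.61, 8.72 and 5.10 CPM in DNase. Every MRL/lpr kidney was above every Ctr kidney, and Lpr replicate 2 was far above the other 3 Lpr kidneys. Between Lpr and Ctr the log2 fold change was 2.75 (SE 0.75, 95% interval 1.05 to 4.45), which missed the threshold at an adjusted p of 0.0522 by edgeR. Without Lpr replicate 2 the log2 fold change was 1.69 and passed (adjusted p = 0.0360), and without Lpr replicate 3 it was 2.99 and passed (adjusted p = 0.0268). It passed in 9 of 17 alternative settings, with adjusted p between 0.000394 and 0.356.

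Hmox1, heme oxygenase 1, was at 22.1, 27.4 and 34.7 CPM in Ctr, at 42.7, 44.9, 94.2 and 29.7 CPM in Lpr and at 15.1, 27.1, 23.8 and 29.7 CPM in DNase. Of the Lpr kidneys 3 were above all Ctr kidneys, with replicate 3 the highest, and the DNase kidneys lay among the Ctr kidneys or below them. Between Lpr and Ctr the log2 fold change was 0.93 (SE 0.38, 95% interval 0.05 to 1.80, adjusted p = 0.205, edgeR), and without Lpr replicate 3 it was 0.48 (adjusted p = 0.164). Hmox2, the constitutive heme oxygenase, had a log2 fold change of 0.27 (95% interval -0.28 to 0.81, adjusted p = 0.587, edgeR).

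**Figure D3:**
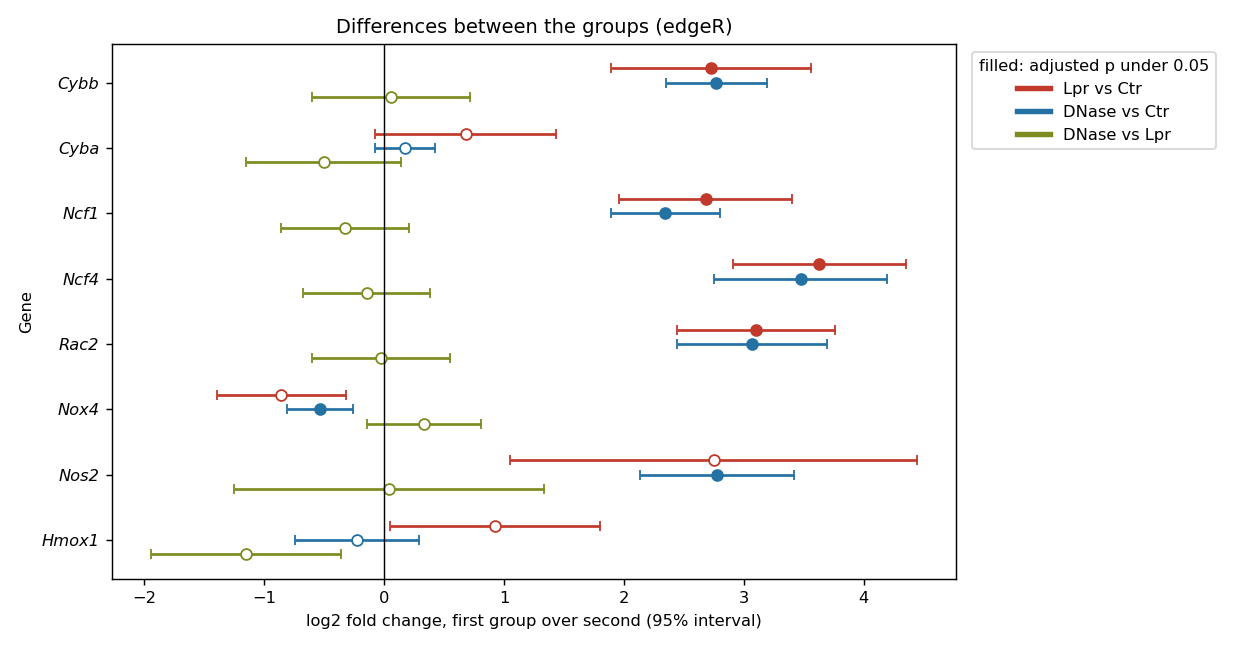
Log2 fold changes of the 8 genes (horizontal axis) with 95% intervals from edgeR, in red for Lpr against Ctr, in blue for DNase against Ctr and in green for DNase against Lpr. Filled points have an adjusted p under 0.05, and the comparisons with Ctr share its 3 kidneys. No green point is filled, and the lowest of them is Hmox1 at -1.15.

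DNase I treated MRL/lpr kidneys were also compared with Ctr, to see which differences from the control strain were present after treatment. In this comparison 5 of the 8 genes were called higher (Cybb, Ncf1, Ncf4, Rac2 and Nos2), beside 4.56% of the 16100 genes tested, and Nox4 passed as lower. By adjusted p alone 13.1% of all genes passed as higher and 8.61% as lower, and in 6 of the 8 genes the kidneys did not overlap, beside 31.9% of all genes. The log2 fold changes were 2.77 for Cybb, 2.34 for Ncf1, 3.48 for Ncf4, 3.07 for Rac2 and 2.77 for Nos2, with adjusted p of 0.000142 or less by edgeR. These are fold changes of 5.08 to 11.1. Nox4 was at 0.69 of its Ctr level (log2 fold change -0.54, SE 0.12, adjusted p = 0.0125, edgeR), but with all 3 groups in 1 fit the adjusted p was 0.144. Cyba had a log2 fold change of 0.17 (95% interval -0.08 to 0.42, adjusted p = 0.323) and Hmox1 one of -0.23 (95% interval -0.74 to 0.29, adjusted p = 0.543). This comparison and that of Lpr with Ctr share the 3 Ctr kidneys, so they are not independent of each other.

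The effect of DNase I was read from the comparison of treated with untreated MRL/lpr kidneys, in which none of the 8 genes passed. Of all 15832 genes tested, 0% passed as higher and 0% as lower with edgeR, while 5.6% had an unadjusted p under 0.05, and DESeq2 called 5 genes, none of them among the 8. One of the 8, Hmox1, had an unadjusted p under 0.05. The treated and untreated kidneys overlapped in all 8 genes, beside 3.76% of all genes in which they did not. The intervals show what size of change these 8 kidneys leave possible. For Cybb the log2 fold change was 0.05 (95% interval -0.61 to 0.71), for Rac2 it was -0.03 (-0.60 to 0.55), for Ncf4 -0.15 (-0.67 to 0.38) and for Ncf1 -0.33 (-0.86 to 0.21). A halving of Cybb, Rac2, Ncf4 or Ncf1 lies outside these intervals. That of Nos2 was wider, 0.04 (-1.25 to 1.33), and it changed sign with single omissions, being 1.07 when Lpr replicate 2 was left out (adjusted p = 0.787) and -0.23 when Lpr replicate 4 was (adjusted p = 0.872). Without Lpr replicate 3 the log2 fold changes were -0.17 for Cybb, -0.05 for Rac2, -0.11 for Ncf4, -0.49 for Ncf1 and -0.22 for Nos2, and none passed.

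Hmox1 had the lowest p of the 8 genes between DNase and Lpr. The 4 DNase kidneys had a mean of 23.9 ± 6.34 CPM (SD), and the 4 Lpr kidneys one of 52.9 ± 28.4 CPM (SD), with a log2 fold change of -1.15 (SE 0.35, 95% interval -1.95 to -0.36, unadjusted p = 0.00916, adjusted p = 0.820, edgeR). Without Lpr replicate 3 it was -0.71 (adjusted p = 0.371), and with the length trend of each library removed, an alternative chosen after the data were seen, it was -0.95 (adjusted p = 0.546). Nox4 averaged 452 ± 60.3 CPM (SD) over the 4 treated and 359 ± 105 CPM (SD) over the 4 untreated kidneys, with a log2 fold change of 0.33 (95% interval -0.15 to 0.80, adjusted p = 0.854, edgeR), and 0.19 without Lpr replicate 3. Cyba had a log2 fold change of -0.50 (95% interval -1.15 to 0.14, adjusted p = 0.854), which was -0.11 without Lpr replicate 3.

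Markers of phagocytes were higher along with the oxidase in both comparisons with Ctr. Of 11 macrophage and monocyte markers tested, 10 passed as higher in Lpr and 11 in DNase against Ctr. Of all genes 7.27% and 13.1% did. Their summed level was 188 to 264 CPM in Ctr, 1172 to 2355 CPM in Lpr and 916 to 1728 CPM in DNase, and none of the markers was at 0 in any kidney. Of 10 neutrophil markers, 7 were tested and 3 passed as higher in Lpr (S100a8, S100a9 and Csf3r), with summed levels of 2.76 to 6.98 CPM in Ctr, 16.5 to 46.2 CPM in Lpr and 15.03 to 27.7 CPM in DNase. Of the defining neutrophil genes, Ly6g, Cxcr2 and Elane did not pass the filter on low counts in that comparison. Rac2 is also expressed in lymphocytes, and all 7 T cell markers passed as higher in both comparisons with Ctr, while 1 of 4 B cell markers did in Lpr and 4 in DNase. Between DNase and Lpr no marker of these lists passed. Of the macrophage and monocyte markers 10 of 11, and of the neutrophil markers 8 of 8, had a log2 fold change below 0 (medians -0.41 and -0.47). Among the oxidase genes Cybb was at 0.05, Rac2 at -0.03, Ncf4 at -0.15, Ncf1 at -0.33 and Cyba at -0.50, and none passed. How much of the change in the oxidase genes goes with these cells was not tested beyond the following comparison.

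Each gene was set against the macrophage and monocyte markers by taking its log2 CPM minus the mean log2 CPM of the 11 markers in the same kidney. For Cybb this difference ranged from -0.27 to 0.17 in Ctr, from -1.18 to 0.06 in Lpr and from 0.03 to 0.31 in DNase, so that the groups of Ctr and Lpr overlapped, and the lowest value was that of Lpr replicate 3. For Ncf1 the ranges were -1.98 to -1.67 in Ctr, -2.58 to -1.71 in Lpr and -2.09 to -1.87 in DNase, again with overlap. Ncf4 was higher relative to the markers in every MRL/lpr kidney (-2.64 to -2.21 in Lpr and -2.46 to -1.997 in DNase) than in Ctr (-3.28 to -2.95). Rac2 was also clear of Ctr (-0.81 to -0.76), with -0.70 to -0.45 in Lpr and -0.51 to 0.01 in DNase. For Nos2 all groups overlapped, at -3.82 to -3.23 in Ctr, -4.94 to -2.92 in Lpr and -3.63 to -3.13 in DNase. Nox4, Cyba and Hmox1 were lower relative to the markers in all MRL/lpr kidneys than in Ctr, by 3.77, 2.30 and 2.06 on the log2 scale between the means of Ctr and Lpr. Taken alone, Cyba and Hmox1 had log2 fold changes of 0.68 and 0.93 between Lpr and Ctr, and neither passed. The marker mean itself was 3.10 to 3.74 in Ctr and 5.63 to 6.83 in the MRL/lpr kidneys. Any gene that rose less than the markers therefore came out lower on this measure. Leaving out Lpr replicate 3 turned the sign of the mean difference between Lpr and Ctr for Cybb, from -0.25 to 0.04. It left that difference at 0.69 for Ncf4 and 0.21 for Rac2. Between DNase and Lpr the mean difference for Cybb was 0.46, and 0.18 without that kidney. None of the 24 comparisons passed in two-sided exact permutation tests over kidneys, at either an unadjusted or an adjusted p under 0.05. The smallest adjusted p was 0.125. The smallest p that 3 kidneys against 4 allow is 0.0571, so the comparisons with Ctr could not pass. Because the adjustment ran over all 24, those between DNase and Lpr could not pass by adjusted p either. By unadjusted p the comparisons between DNase and Lpr could pass, with 0.0286 as the smallest value. Rac2 came closest (difference 0.29, exact permutation p = 0.0571).

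**Figure D4:**
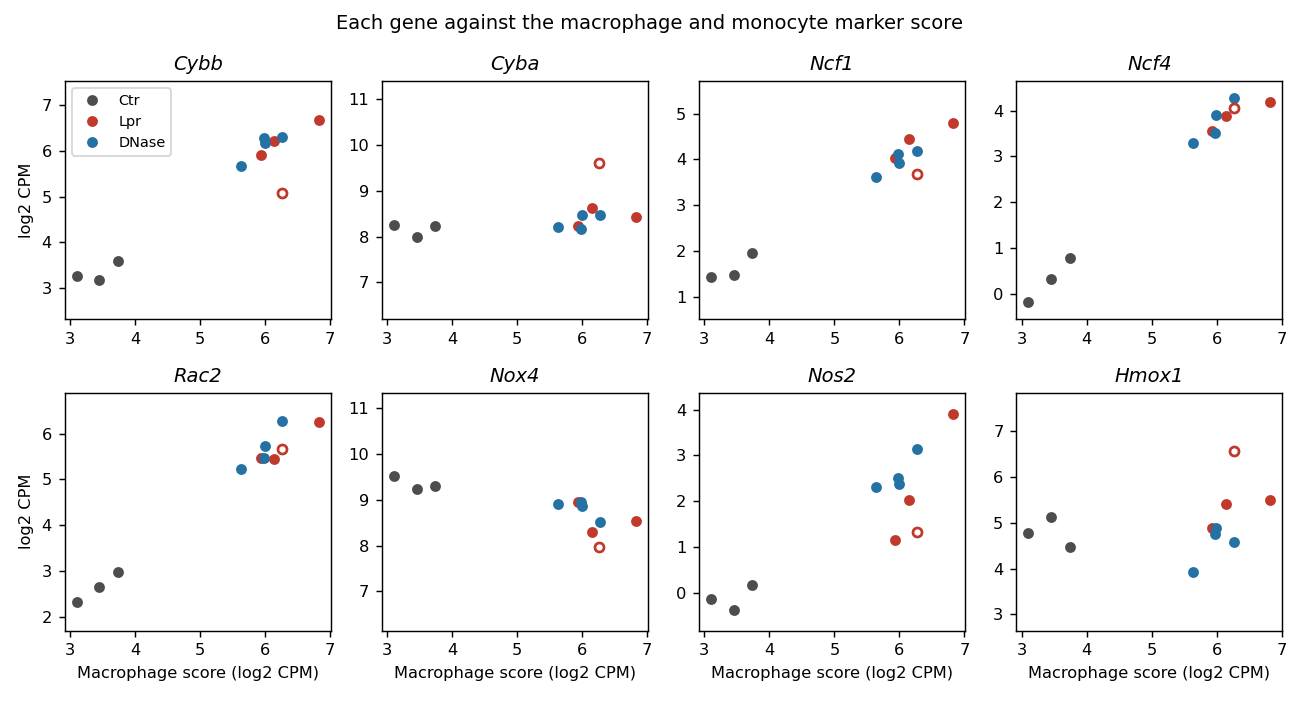
Log2 CPM of each of the 8 genes (vertical axis, each panel spans the same number of log2 units) against the mean log2 CPM of 11 macrophage and monocyte markers (horizontal axis), with 1 point per kidney in grey for Ctr, red for Lpr and blue for DNase. The open point is Lpr replicate 3. The MRL/lpr kidneys lie at scores above 5.6 and the Ctr kidneys below 3.8. Cybb, Ncf1, Ncf4, Rac2 and Nos2 are higher in the MRL/lpr kidneys than in Ctr, while Cyba lies between 8.0 and 9.6. Among the MRL/lpr kidneys Cybb is lowest in Lpr replicate 3, at 5.08, where the score is 6.26.

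Among the 8 MRL/lpr kidneys, levels of the 8 genes varied together in part, which is given as a description over 8 libraries that include Lpr replicate 3. Pearson's r of log2 CPM was 0.88 between Ncf4 and Rac2 and 0.82 between Cybb and Ncf1, and without Lpr replicate 3 these were 0.92 and 0.88. Cybb and Ncf4 had an r of 0.27 with and 0.80 without that kidney. Cyba and Nox4, which encode partners, had an r of -0.89, and of -0.87 without Lpr replicate 3. These genes differ in length (759 bases for Cyba and 6272 for Nox4). The length slope still varied among the remaining MRL/lpr kidneys, from -0.04 in DNase replicate 3 to 0.07 in DNase replicate 2. The part of gene length in this r was not tested. The genes whose levels were most like those of Cybb over the 8 kidneys, among 14800 genes, were Nckap1l, Psd4, Klhl36, Ticam1 and Rdh19 (r of 0.97 to 0.98). For Nox4 they were Zfp971, Nek1, Zfp715, Cntnap1 and Odr4 (0.97 to 0.99), for Nos2 they were Ppfia3, Tvp23a, Pacrgl, Septin9 and Camkmt (0.92 to 0.96), and for Hmox1 they were Rpp38, Plaat3, Mdk, Tomm34 and Dap (0.97 to 0.99). These are the highest of 14800 values of r over only 8 kidneys, 1 of which is Lpr replicate 3, and carry no test.

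The other genes of the pathway were counted by list. Of 9 genes that assemble or regulate the oxidase, 2 passed as higher in Lpr against Ctr, with a median log2 fold change of 0.81 for the list. These were Vav1, an activator of Rac (log2 fold change 2.90, adjusted p = 0.000918, edgeR), and Prkcb, a kinase of p47phox (2.497, adjusted p = 0.00911). Without Lpr replicate 3, 5 of the 9 passed as higher, beside 11% of all genes, and the further genes were Cybc1, the chaperone of gp91phox (0.46, adjusted p = 0.0416), the proton channel Hvcn1 (1.13, adjusted p = 0.0450) and the Rac effector Pak1 (0.54, adjusted p = 0.0210). In DNase against Ctr 7 of the 9 passed as higher, beside 13.1% of all genes (7.27% in Lpr against Ctr), led by Vav1 (2.83, adjusted p = 0.000139, edgeR), Prkcb (2.80, adjusted p = 0.000224) and Hvcn1 (1.23, adjusted p = 0.00952). None of the 9 passed between DNase and Lpr.

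Of the other NADPH oxidases, most were at the edge of detection in these kidneys. Of 10 listed genes 9 were in the table and 2 passed the filter on low counts, and Nox1 never exceeded 2 counts in a kidney and Duox2 never exceeded 7. Noxo1, the organiser that serves NOX1, passed as higher against Ctr in Lpr (log2 fold change 1.12, adjusted p = 0.0436, edgeR) and in DNase (0.95, adjusted p = 0.0188), with 37 to 47 counts per kidney in Ctr and 77 to 116 in Lpr.

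Of 10 genes of nitric oxide and arginine metabolism, 1 passed as higher in Lpr against Ctr, beside 7.27% of all genes. None passed as lower, beside 2.92% of all genes. The gene that passed was Gch1, which makes the cofactor that nitric oxide synthases need (log2 fold change 1.32, adjusted p = 0.0219, edgeR). Nos3, the endothelial enzyme, stayed at means of 11.5 CPM in Ctr, 11.7 CPM in Lpr and 10.6 CPM in DNase (log2 fold change 0.04 between Lpr and Ctr, 95% interval -0.64 to 0.73). In DNase against Ctr 3 passed as higher, beside 13.1% of all genes, and 1 as lower, beside 8.61%. These were Arg1, an arginase (4.20, adjusted p = 0.00820), Gch1 (0.80, adjusted p = 0.0355), Arg2 (0.56, adjusted p = 0.0234) and, lower, the arginine transporter Slc7a2 (-1.13, adjusted p = 0.00836). Arg1 had a log2 fold change as high as 4.03 in Lpr, but its kidneys overlapped those of Ctr and it did not pass (adjusted p = 0.200). Its Ctr kidneys held 2 to 11 counts.

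A mixed list of 26 genes covered NRF2 targets and antioxidants, and also NRF2 itself (Nfe2l2), Keap1, Bach1, Hmox2, Hp, Hpx and Cd163. Of these 26, 25 were tested. In Lpr against Ctr 1 passed as higher, beside 7.27% of all genes, and none as lower, beside 2.92%. The one was Slc7a11, the cystine transporter that feeds glutathione synthesis (log2 fold change 3.04, adjusted p = 0.0133, edgeR), whose mean was 0.138 CPM in Ctr and 1.15 CPM in Lpr. Without Lpr replicate 3, 5 genes passed as lower, beside 6.79% of all genes: Cat (-0.64), Gclc (-0.68), Prdx1 (-0.56), Fth1 (-0.54) and Sod1 (-0.44), with adjusted p between 0.00585 and 0.0400. In DNase against Ctr 2 of the 25 passed as higher and 3 as lower, beside 13.1% and 8.61% of all genes. The higher ones were Slc7a11 (3.53, adjusted p = 0.000658, edgeR) and the glutathione reductase Gsr (0.35, adjusted p = 0.0129). Lower there were Gclc, the catalytic subunit of the first enzyme of glutathione synthesis (-0.79, adjusted p = 0.00363), the ferritin heavy chain Fth1 (-0.53, adjusted p = 0.0204) and the peroxidase Prdx1 (-0.41, adjusted p = 0.00931). The median over the list was 0.07 in Lpr against Ctr and -0.08 in DNase against Ctr, near the medians of all genes of 0.03 and 0.0020. In DNase against Lpr none of the tested genes of the lists for nitric oxide, NRF2 and other oxidases passed.

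**Figure D5:**
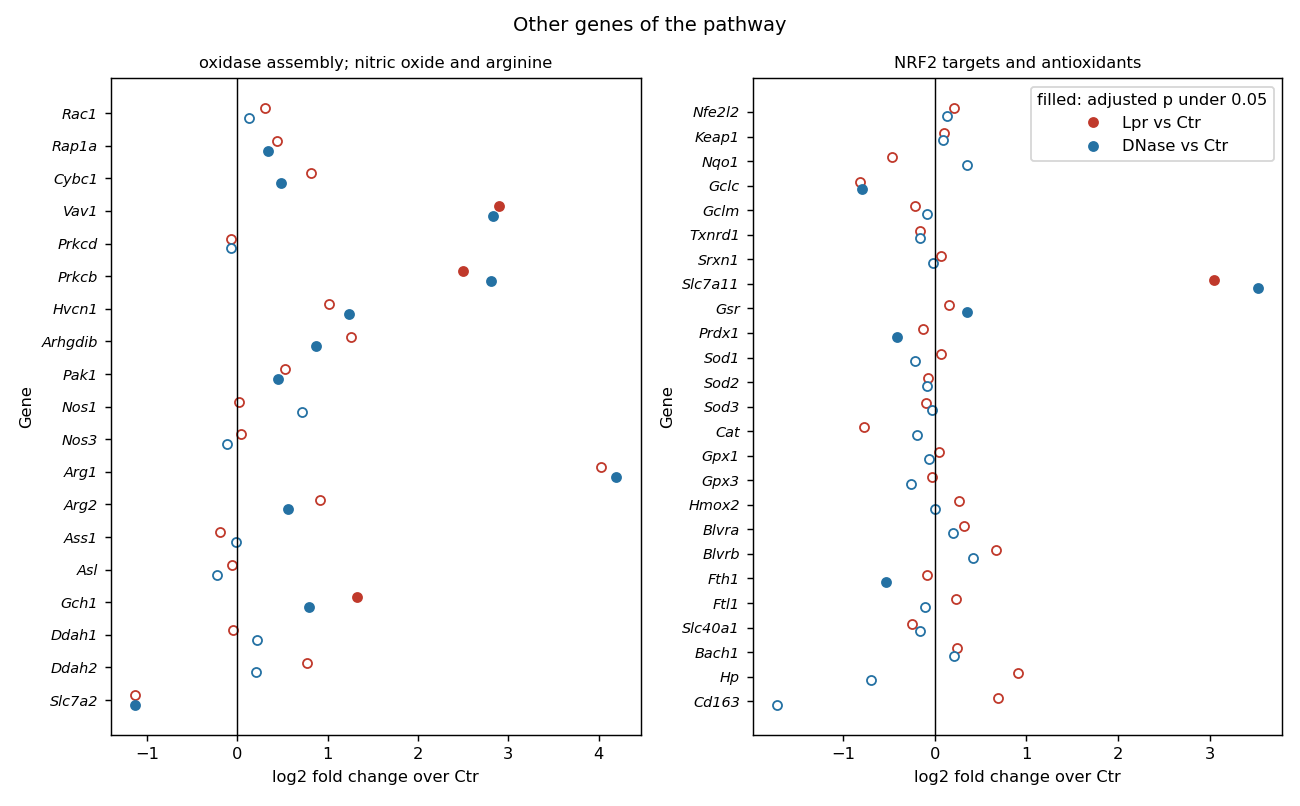
Log2 fold changes over Ctr (horizontal axis) of the tested genes of 3 lists, in red for Lpr and in blue for DNase, with filled points for an adjusted p under 0.05 by edgeR. Vav1 and Prkcb are filled in both colours, between 2.497 and 2.90, and Slc7a11 is filled in both at 3.04 and 3.53, while Cat and Sod1 are open in both.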

How the data were processed

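Kidney RNA of 11 mice was measured as gene counts, deposited by the authors as whole numbers without normalization. The paper's methods credit the alignment of paired-end reads to HTSeq, a read counter, and the submitters' processing notes also name fastp and mm10. The annotation and any strand setting are not given in the sources used here. The FPKM values were deposited by the authors too, and count over FPKM gave the gene lengths. Groups were compared in pairs with edgeR 4.0.16 (R 4.3.3), quasi-likelihood test, filterByExpr and TMM, with Benjamini-Hochberg adjustment over all genes. A gene passed at an adjusted p under 0.05 and was called if the absolute log2 fold change was also above 2. Log2 CPM used a prior count of 2. The paper names DESeq2, which (1.42.0) was an alternative, as were RLE factors, no filter, all groups in 1 fit, a replicate block, limma 3.58.1 on log2(FPKM + 1) and log2(FPKM + 0.1) at a mean FPKM of at least 0.5, and leaving out each kidney. Promoters were read from the RefSeq table of GRCm38.p6. Near-identical copies were searched with blastn 2.17.0+. P-values measure the spread between mice. The procedure was run on simulated data in which chosen genes were raised by more than the threshold. That run held no smaller or downward changes and no library whose counts fall with gene length, so it does not speak to these. The 8 genes, the lists and the tests were chosen with earlier results of these data known. Named list genes are Hmox2 and Nos3, plus up to 3 per list, comparison and direction with the largest change among those that passed. Rac1, Arg1 between Lpr and Ctr, Nox1, Duox2 and genes given without Lpr replicate 3 were added after their values were seen. One listed gene is not reported here, and the list counts leave it out.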

Additional observations from a re-analysis of the deposited data

Results flagged for a closer look

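Of 16 groups of 4 kidneys (8 genes in Lpr and DNase), 1 held a kidney far from the rest: Nos2 was at 14.97 CPM in Lpr replicate 2, and the next highest Lpr kidney was at 4.04 CPM, a gap of 0.853 of the group's range. About 1 group in 20 is expected to show such a gap by chance alone. The macrophage and monocyte markers were also highest in that kidney, at 2355 CPM summed, and their part in its Nos2 level was not tested.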

How the results depend on the processing

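The count of called genes among the 8 stayed between 3 and 5 for Lpr against Ctr, at 0 for DNase against Lpr, and at 5 or 6 for DNase against Ctr, except that limma on log2(FPKM + 1) called 3 in the latter, with or without the filter. Leaving out 1 kidney at a time gave 4 to 5, 0 and 5 called genes in that order. Of 407 values of single genes under alternatives, 373 kept their direction and their side of the threshold, 17 newly passed, 2 no longer passed (Nox4 in DNase against Ctr, with an adjusted p of 0.144 with all groups in 1 fit and 0.0524 with limma and no filter) and 15 changed sign, all between DNase and Lpr, none passing. For Cybb these were -0.13 with the length trend removed and without Lpr replicate 3, and between -0.17 and 0.31 when 1 kidney was left out (negative without DNase replicate 2, -0.0025, DNase replicate 3, -0.01, and Lpr replicate 3, -0.17). For Rac2 they were 0.01 under each limma setting (0.0108 and 0.0109) and 0.11, 0.05 and 0.18 without DNase replicates 1 and 2 and Lpr replicate 2, in a range of -0.26 to 0.18 over the single omissions. For Nos2 they were -0.18 with the length trend removed and without Lpr replicate 3, and -0.18, -0.10, -0.22 and -0.23 without DNase replicate 3 and Lpr replicates 1, 3 and 4, up to 1.07 without Lpr replicate 2. The cause was not tested. The length-trend settings were chosen after seeing the data.

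In the replicate block fits, 5 of the 8 genes were called for Lpr against Ctr (870 of all 15855 genes, either direction), 0 for DNase against Lpr (0 of 15832, with 792 at an unadjusted p under 0.05 in edgeR) and 5 for DNase against Ctr (839 of 15950), with Nos2 (adjusted p = 0.0262) and Nox4 (adjusted p = 0.0427) newly past an adjusted p of 0.05 in the first. Same-numbered kidneys had correlations of their deviations between -0.28 and 0.16, so the numbers are not shown to pair the mice. With 3 or 4 kidneys a group and 24 to 62 counts for Nos2 and Ncf4 in Ctr, the spread between mice limits the precision of the other genes and counting error adds to it for these.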
